A study of Caenorhabditis elegans with 15 samples.

Results

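Genes of fatty acid handling, 40 in all, were followed across larvae of 4 mutant strains and wild-type Caenorhabditis elegans. Their probe sets were those whose single annotated gene symbol began with fat- (fatty acid desaturases, 7 genes), elo- (elongases, 8), lipl- (lysosomal acid lipases, 8), lbp- (intracellular lipid-binding proteins, 9) or far- (fatty acid- and retinol-binding proteins, 8). This rule uses names and no measured value, and it gave 40 probe sets, 1 per gene, among 22548 probe sets on the array, or 40 of 17118 named genes.

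The arrays held RNA from 13 populations of whole larvae at the L1 to L2 stage, with 3 populations of the alg-1(gk214) strain VC446, 2 of the zfp-1(ok554) strain RB774, 3 of the rde-4(ne299) strain BB11, 2 of the lin-35(n745) unc-13(e1091) strain MT3033 and 3 of wild-type N2 Bristol. Eggs of every strain were released with hypochlorite, larvae hatched overnight without food, and all were then fed OP50 bacteria for 6 to 7 h. alg-1 encodes an Argonaute protein of the microRNA pathway, zfp-1 a PHD zinc finger protein, and rde-4 a double-stranded RNA-binding protein that works with Dicer. lin-35 encodes the worm's retinoblastoma protein and unc-13 a synaptic protein, so that strain carries both mutations and their effects cannot be told apart. Each mutant group is a single strain.

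Desaturases insert double bonds into fatty acids and elongases lengthen them, and together these enzymes let the worm build its own polyunsaturated and branched-chain fatty acids. Lysosomal lipases release fatty acids from stored fat, and several of their genes are known to respond to fasting. LBP proteins carry fatty acids and related lipids within or outside cells, and the nematode-specific FAR proteins bind fatty acids and retinol. In the worm the intestine is the main site of fat synthesis, storage and breakdown.

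Populations of a group were not equally alike. On the second principal component of all tested genes the mutant populations lay between -30.9 and 21.9, wild-type replicates 1 and 2 at 46.1 and 49.3, and wild-type replicate 3 at 13.6. Differences between wild-type populations did not split in this way. Their SD over tested genes was 0.68 for replicates 1 and 2, 0.72 for 1 and 3 and 0.61 for 2 and 3. Replicates 1 and 3 of alg-1 differed by an SD of 0.27 over tested genes, which lay between the 0.22 and 0.36 of a pair of arrays that held the same zfp-1 or lin-35 unc-13 population. Counting them as 1 population left 3, 7, 6 and 0 genes of the families past the threshold in alg-1, zfp-1, rde-4 and lin-35 unc-13 against wild type, the same counts as below. The share of all genes called fell, to 0.775%, 3.03%, 8.48% and 5.81% in the same order, from 3.13%, 4.2%, 11.1% and 6.66%. The 3′ over 5′ difference of the actin controls, a sign of RNA quality, was 1.94 to 2.96 on the log2 scale in rde-4, 0.81 to 1.79 in alg-1, zfp-1 and lin-35 unc-13, and 1.25 to 2.22 in wild type. Its part in the rde-4 results was not tested. Values below are the authors' deposited log2 values, on which a difference of 1 is a doubling, and 8151 to 8374 genes per population reached 5, the level taken here as detected.

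Of the 40 genes, 30 reached 5 in at least 2 populations and were tested, beside 50.5% of all genes. Among all members, 26 reached it in all 13 populations, 4 in some (fat-5, fat-7, lipl-1 and far-3) and 10 in none. These 10 were elo-4, elo-7, elo-9, lipl-3, lipl-4, lipl-6, lipl-8, lbp-8, far-4 and far-5, and their highest values lay between 2.09 and 3.23. Both genes of a known lysosome-to-nucleus lipid signal, the lipase lipl-4 and the carrier lbp-8, were thus below detection in every strain. Over the 5 group means the 30 tested genes spanned 0.16 to 3.68, with a median span of 1.08, against a median of 0.73 over all tested genes. The median span was 0.51 for desaturases, 0.51 for elongases, 2.30 for lipases, 1.08 for LBP genes and 1.43 for FAR genes.

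No gene of the 5 families was called higher than wild type in any mutant, while several were called lower in each of alg-1, zfp-1 and rde-4. At an adjusted p under 0.05 in limma, 3 of the 30 were lower in alg-1, where 3.13% of all genes were called and 2.06% were lower. In zfp-1 it was 7, against a background of 4.2% called and 2.92% lower, and in rde-4 it was 6, against 11.1% called and 4.73% lower. In lin-35 unc-13 the count was 0, against 6.66% called, with 6 genes at an unadjusted p under 0.05, and 0 to 1 called under the other settings. The share of all genes at that unadjusted p was not counted, so the 6 genes have no background. The median change of the 30 genes was -0.19 in alg-1, -0.28 in zfp-1, -0.07 in rde-4 and -0.17 in lin-35 unc-13, beside 0.02, -0.01, 0.04 and 0.01 over all tested genes. Lower values were found for 22, 24, 20 and 20 of the 30 genes in the same order. The 4 comparisons share their wild-type populations, so a shared direction is not independent between them. In whole larvae, fewer cells of a type and less RNA per cell cannot be told apart.

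**Figure D1:**
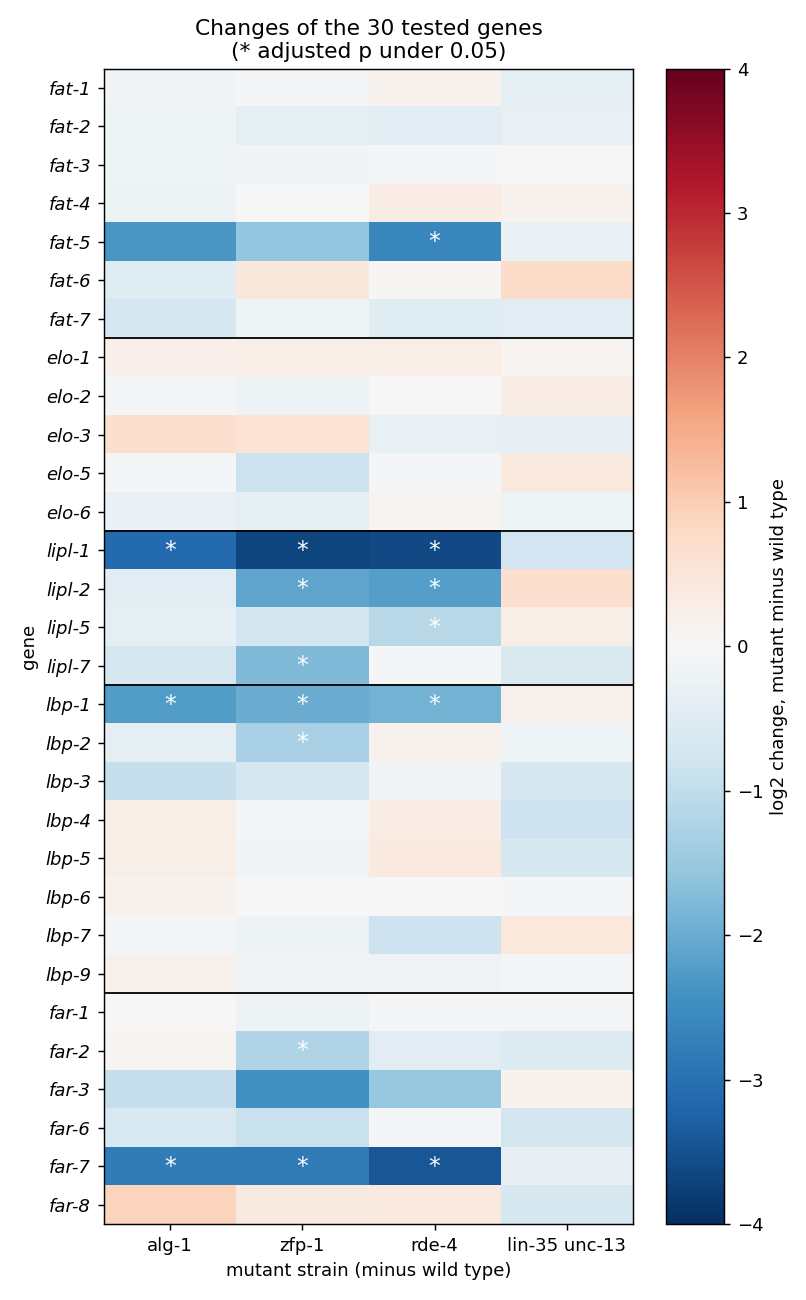
Log2 change of the 30 tested genes, ordered by family, in alg-1, zfp-1, rde-4 and lin-35 unc-13 larvae relative to wild type, with blue for lower and red for higher values and marked cells for an adjusted p under 0.05. All marked cells are blue, they lie in the first 3 columns, and no elongase is among them.

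A set of 3 genes was low in alg-1, zfp-1 and rde-4 alike: the lipase lipl-1, the lipid-binding protein lbp-1 and the FAR gene far-7. A further gene, the lipase lipl-2, was called in zfp-1 and rde-4. Another 5 were called in a single mutant each, fat-5 and lipl-5 in rde-4 and lipl-7, lbp-2 and far-2 in zfp-1, and 21 were called in none.

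lipl-1, one of the lipase genes known to respond to fasting, had log2 values of 3.79, 3.60 and 3.79 in alg-1, 3.02 and 3.29 in zfp-1, 3.05, 3.75 and 2.83 in rde-4, 6.11 and 5.99 in lin-35 unc-13, and 6.34, 7.27 and 6.88 in wild type. All 8 populations of the first 3 mutants were below 5 and all lin-35 unc-13 and wild-type populations above it, so the low and the high groups did not overlap, and both lin-35 unc-13 values lay just under the wild-type range. Since the low side is only a bound, the gene was at least 3.55-fold lower in each of alg-1 (adjusted p = 0.00017), zfp-1 (adjusted p = 0.00014) and rde-4 (adjusted p = 2.88e-05). Against wild type its change in lin-35 unc-13 was -0.78, with a 95% interval of -1.44 to -0.11 and an adjusted p of 0.174. lipl-1 kept its call in all 3 mutants under each of the 25 other settings in which it was tested. It was also called in each when wild-type replicate 3 alone served as control, with adjusted p of 0.00648 in alg-1, 0.00381 in zfp-1 and 0.00141 in rde-4.

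lbp-1, which encodes a member of the LBP group that carries a secretion signal, lay at 8.26, 8.29 and 8.13 in alg-1, at 8.16 and 8.77 in zfp-1, at 8.55, 8.85 and 8.28 in rde-4, at 10.54 and 10.73 in lin-35 unc-13, and at 10.80, 10.72 and 9.87 in wild type. Every alg-1, zfp-1 and rde-4 population was below every wild-type one, and both lin-35 unc-13 populations fell within the wild-type range. It fell in all 3, with a change of -2.24 ± 0.26 (SE) in alg-1 (adjusted p = 0.00177), -1.999 ± 0.30 in zfp-1 (adjusted p = 0.0049) and -1.90 ± 0.26 in rde-4 (adjusted p = 0.00217). In lin-35 unc-13 the difference was 0.17, with a 95% interval of -0.48 to 0.82. Without zfp-1 replicate 1 the zfp-1 change was -1.69 and its adjusted p 0.0843.

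The FAR gene far-7 had values of 8.51, 9.57 and 8.56 in alg-1, 8.82 and 8.86 in zfp-1, 8.18, 9.16 and 7.47 in rde-4, 11.33 and 11.40 in lin-35 unc-13, and 11.82, 12.24 and 10.98 in wild type. As with lbp-1, the first 3 mutants lay wholly below wild type and the lin-35 unc-13 populations within its range. It fell in all 3, with a change of -2.80 ± 0.44 in alg-1 (adjusted p = 0.00735), -2.84 ± 0.49 in zfp-1 (adjusted p = 0.0103) and -3.41 ± 0.44 in rde-4 (adjusted p = 0.00131). Its lin-35 unc-13 difference was -0.31, with a 95% interval of -1.38 to 0.75. The zfp-1 call was lost without either zfp-1 population, with adjusted p of 0.102 and 0.103 at changes of -2.82 and -2.86.

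**Figure D2:**
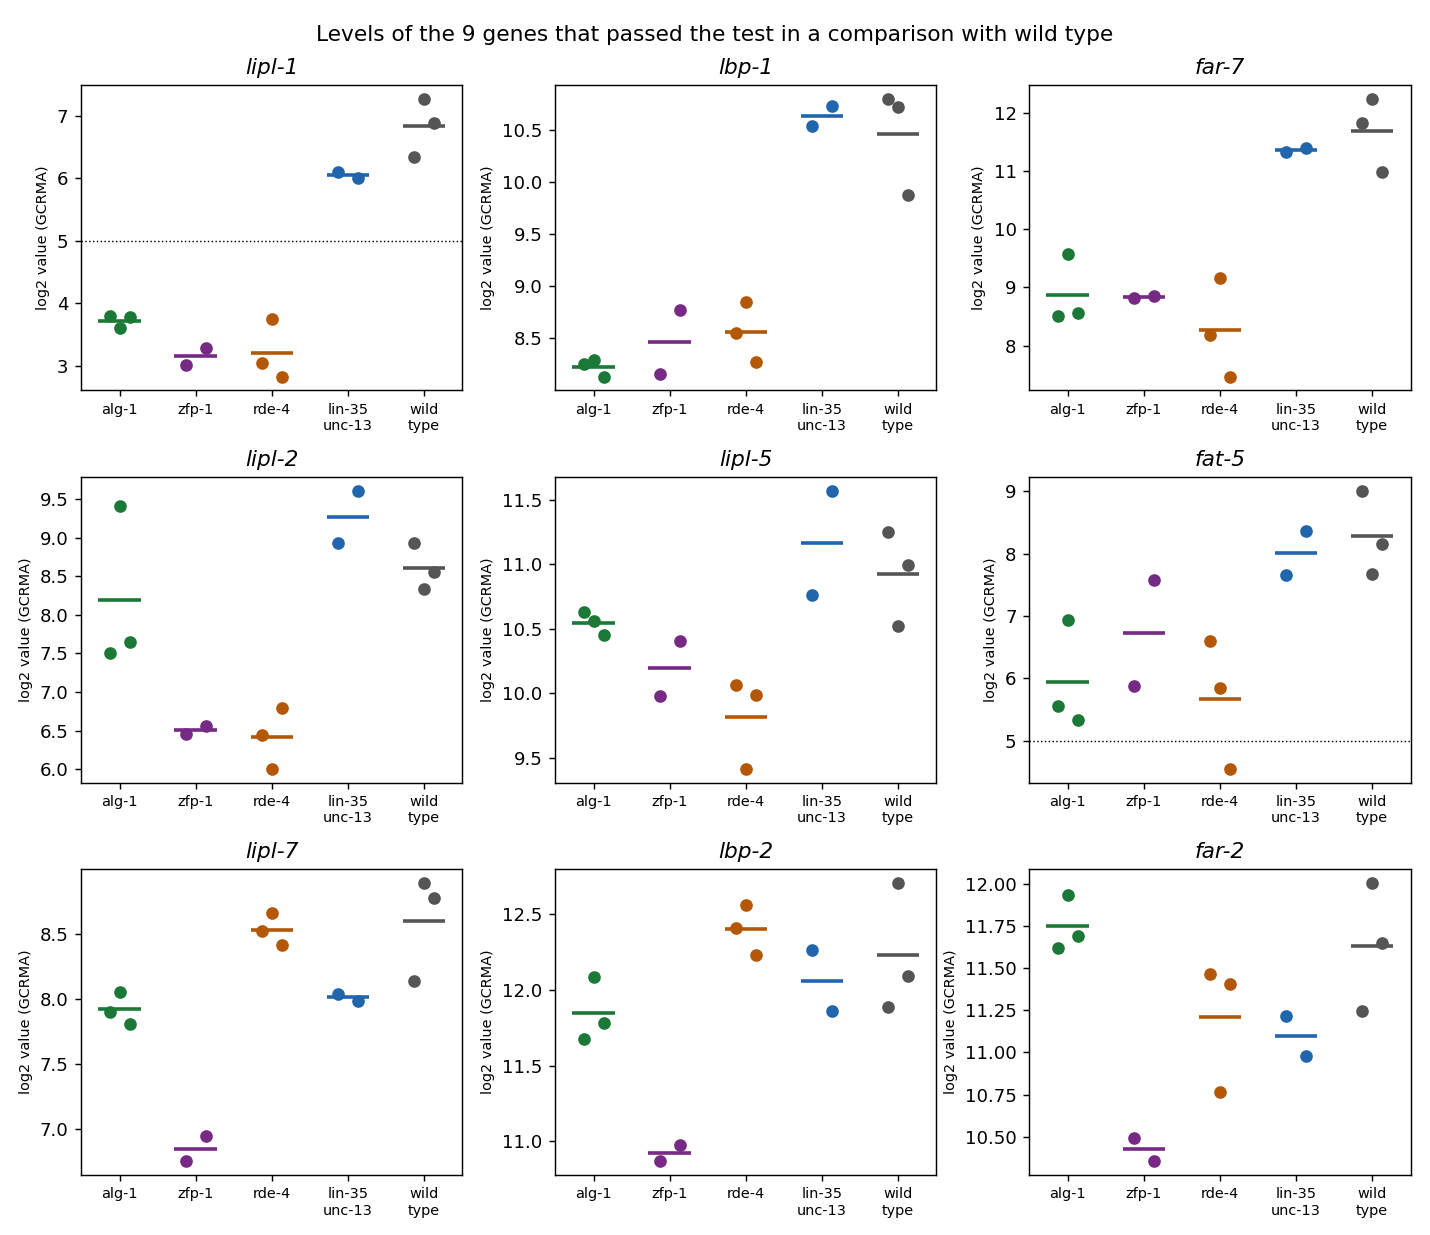
Log2 value in each population (points) and group mean (bars) for the 9 genes that passed in at least 1 mutant, with the mutants left of wild type, a separate vertical range per gene, and a dotted line at 5 where a population lay below it. lipl-1, lbp-1 and far-7 are low in alg-1, zfp-1 and rde-4 but not in lin-35 unc-13, while lipl-7, lbp-2 and far-2 are lowest in zfp-1.

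The lin-35 unc-13 strain was set directly against the other mutants, which leaves wild type out of the contrast. It had higher lipl-1, lbp-1 and far-7 than each of them. Of the 30 genes, 7 were higher and 1 lower than in rde-4 (11.4% of all genes called, 7.96% higher and 3.41% lower), 4 were higher than in alg-1 (6.95% of all genes called, 5.5% higher) and 6 were higher than in zfp-1 (6.28% called, 5.64% higher). The split depended on the scaling: with array medians subtracted, which moved the median change of all genes by -0.30 against rde-4, -0.19 against alg-1 and -0.28 against zfp-1, 6 genes were higher and 5 lower than in rde-4 (far-6, fat-1, lbp-4, lbp-5 and lipl-7), 4 were higher and 2 lower than in alg-1 (far-8 and lbp-4), and 4 were higher and 0 lower than in zfp-1. For these pairs the share of all genes called under that scaling was not counted. lipl-1 was at least 2.07-fold higher than in rde-4 (adjusted p = 5.6e-05), alg-1 (adjusted p = 0.000375) and zfp-1 (adjusted p = 0.000119). lbp-1 was higher than in rde-4 by 2.07 ± 0.30 (adjusted p = 0.000667), than in alg-1 by 2.40 ± 0.30 (adjusted p = 0.000221) and than in zfp-1 by 2.17 ± 0.32 (adjusted p = 0.00125). For far-7 the differences were 3.09 ± 0.49 from rde-4 (adjusted p = 0.0014), 2.49 ± 0.49 from alg-1 (adjusted p = 0.00863) and 2.53 ± 0.53 from zfp-1 (adjusted p = 0.0142). Both lin-35 unc-13 populations lay above all those of the other mutant in each of these 9 comparisons. With groups this small, separation in either direction also held for members that were not called, among them fat-1 against rde-4 and lbp-3 against alg-1. The 3 genes had also been named for their low values in these same mutant populations. The far-7 call against alg-1 was lost without lin-35 unc-13 replicate 1 (adjusted p = 0.0921) or 2 (adjusted p = 0.0666), and against zfp-1 without any 1 of the 4 populations compared (adjusted p 0.0847 to 0.113).

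**Figure D3:**
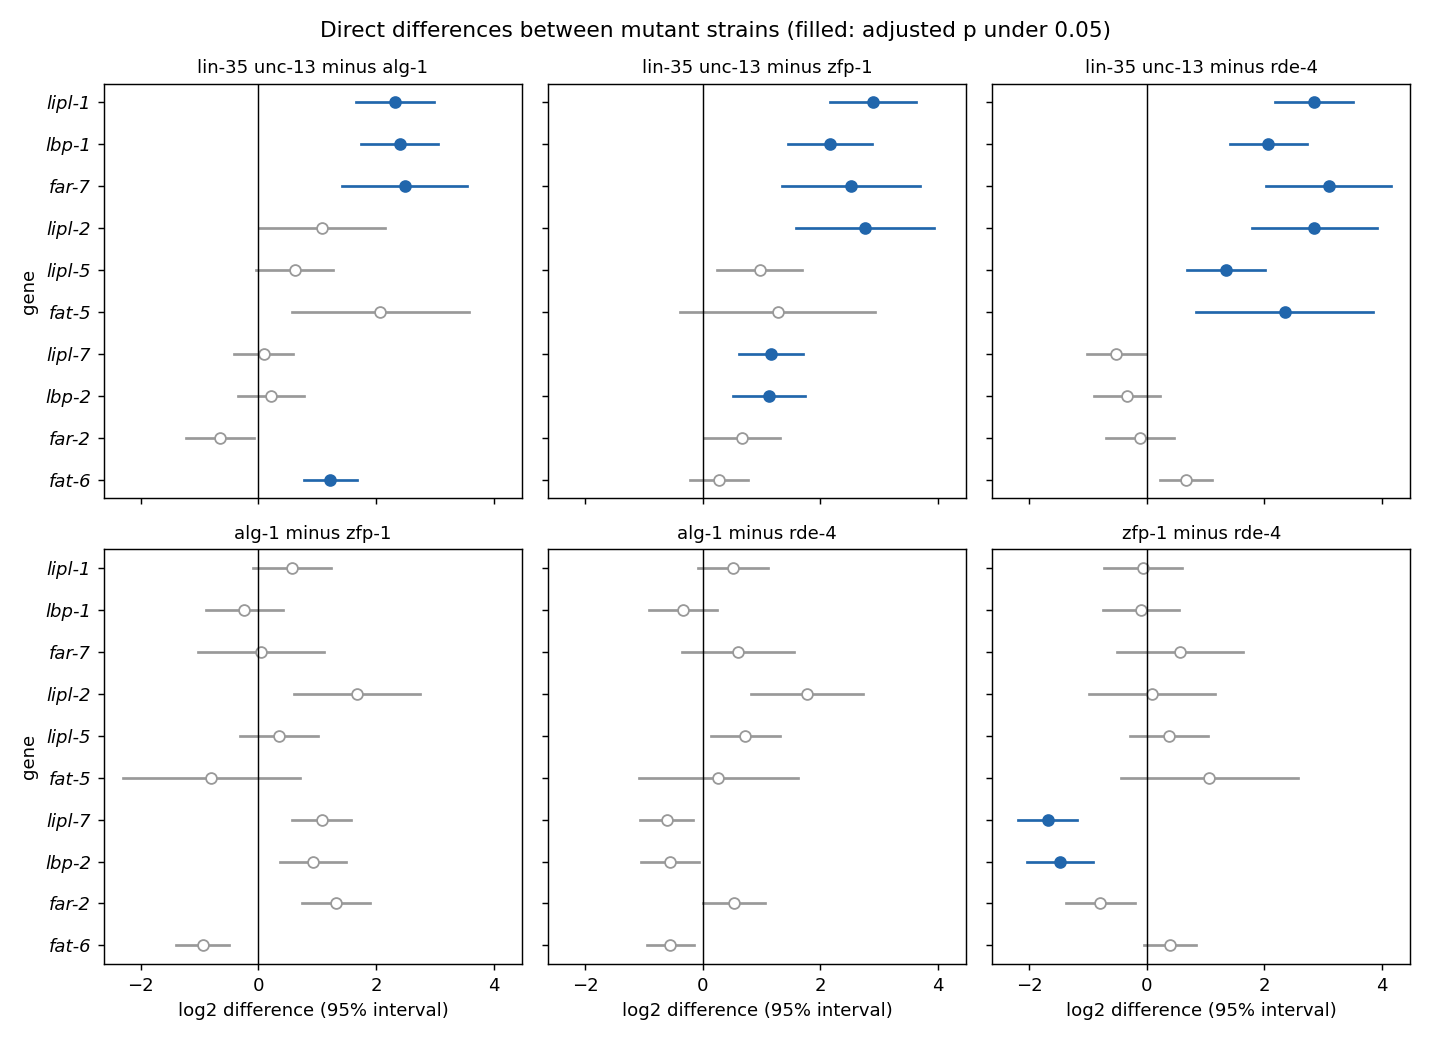
Differences in log2 value for the 6 pairs of mutants, each as the first-named minus the other, for the 9 genes that passed against wild type plus fat-6, drawn with 95% intervals and filled points for an adjusted p under 0.05. The intervals of lipl-1, lbp-1 and far-7 lie above 0 in all comparisons of lin-35 unc-13 with another mutant and include 0 between alg-1, zfp-1 and rde-4.

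Between alg-1, zfp-1 and rde-4 themselves few members could be separated. No gene of the families passed in alg-1 against rde-4 (1.02% of all genes called, 11 of the 30 at an unadjusted p under 0.05, and 0 called with any 1 population left out). None passed in alg-1 against zfp-1 (0.705% called, 6 at an unadjusted p under 0.05), where 0 to 2 passed with 1 population left out. In zfp-1 against rde-4, 2 were lower (1.36% of all genes called, 0.867% lower), lipl-7 and lbp-2. The share of all genes at an unadjusted p under 0.05 was not counted, so the 11 and the 6 above have no background.

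Among the lipases, lipl-2 had values of 7.50, 9.42 and 7.65 in alg-1, 6.46 and 6.56 in zfp-1, 6.45, 6.01 and 6.79 in rde-4, 8.93 and 9.60 in lin-35 unc-13, and 8.93, 8.34 and 8.55 in wild type. The zfp-1 and rde-4 populations all lay below wild type, while alg-1 replicate 2 lay above it and the other alg-1 populations below. lipl-2 fell in zfp-1, by a change of -2.10 ± 0.49 (adjusted p = 0.0366), and in rde-4, by -2.19 ± 0.44 (adjusted p = 0.0139). Its change in alg-1 was -0.42 with a 95% interval of -1.37 to 0.54. Directly, alg-1 minus rde-4 was 1.77 (adjusted p = 0.0859) and alg-1 minus zfp-1 was 1.68 (adjusted p = 0.196). It was higher in lin-35 unc-13 than in rde-4 by 2.85 ± 0.49 (adjusted p = 0.0025) and than in zfp-1 by 2.76 ± 0.53 (adjusted p = 0.0082). The zfp-1 call against wild type was lost without wild-type replicate 1 or 2, zfp-1 replicate 1 or 2, or rde-4 replicate 1 (adjusted p 0.0552 to 0.228). Without wild-type replicate 1 the rde-4 call was lost too (adjusted p = 0.0581), and the difference from zfp-1 was lost without either zfp-1 population or lin-35 unc-13 replicate 2 (adjusted p 0.0545 to 0.0836).

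lipl-5, also a lysosomal lipase gene, was lower in rde-4, at 10.06, 9.42 and 9.98, against 11.25, 10.52 and 10.997 in wild type. Its other values were 10.63, 10.56 and 10.45 in alg-1, 9.98 and 10.41 in zfp-1, and 10.76 and 11.57 in lin-35 unc-13. The rde-4 populations did not overlap wild type, and zfp-1 also lay wholly below it. The fall was 1.10 ± 0.27 in rde-4 (adjusted p = 0.0272), and the zfp-1 change of -0.73 did not pass (adjusted p = 0.183). Without wild-type replicate 1, rde-4 replicate 2 or rde-4 replicate 3 the rde-4 call was lost (adjusted p = 0.104, 0.0724 and 0.0516). lin-35 unc-13 was higher than rde-4 by 1.34 ± 0.30 (adjusted p = 0.0138), a call lost without lin-35 unc-13 replicate 2 (adjusted p = 0.115).

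The remaining tested lipase gene, lipl-7, was lowest in zfp-1, at 6.75 and 6.94, with 7.90, 8.05 and 7.81 in alg-1, 8.52, 8.66 and 8.41 in rde-4, 8.04 and 7.99 in lin-35 unc-13, and 8.13, 8.89 and 8.78 in wild type. Both zfp-1 populations lay below every other population. It fell by 1.76 ± 0.23 against wild type (adjusted p = 0.00231) and was lower than in rde-4 (difference -1.69 ± 0.23, adjusted p = 0.00344). lin-35 unc-13 was higher than zfp-1 by 1.17 ± 0.25 (adjusted p = 0.0151), while alg-1 minus zfp-1 was 1.07, with a 95% interval of 0.58 to 1.57, and missed the threshold (adjusted p = 0.0626). The difference from rde-4 was lost without zfp-1 replicate 1 (adjusted p = 0.0742). That from lin-35 unc-13 was lost without any 1 of the 4 populations compared (adjusted p 0.0685 to 0.143). Against wild-type replicate 3 alone the change in zfp-1 was -1.93 (adjusted p = 0.0117).

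zfp-1 also had the lowest values of lbp-2 and far-2. lbp-2, a neighbour of lbp-1 on chromosome X with no gene between them in the RefSeq annotation, was at 10.87 and 10.97 in zfp-1, at 11.67, 12.09 and 11.78 in alg-1, at 12.41, 12.56 and 12.23 in rde-4, at 12.26 and 11.86 in lin-35 unc-13, and at 11.89, 12.70 and 12.09 in wild type. The zfp-1 populations lay below all others. It fell by 1.31 ± 0.26 in zfp-1 (adjusted p = 0.0179), was lower in zfp-1 than in rde-4 (difference -1.48 ± 0.26, adjusted p = 0.0166) and was higher in lin-35 unc-13 than in zfp-1 by 1.14 ± 0.28 (adjusted p = 0.0326). The call against wild type and that against rde-4 were lost without either zfp-1 population (adjusted p 0.141 to 0.194). The lin-35 unc-13 call was lost without either population of zfp-1 or lin-35 unc-13, alg-1 replicate 3 or rde-4 replicate 1 (adjusted p 0.0512 to 0.262).

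Thus lbp-1 was called lower in 3 mutants and its neighbour lbp-2 in 1. On the other side of lbp-1, again with no gene between, lbp-3 had values of 9.63, 9.38 and 9.79 in alg-1, 9.70 and 9.91 in zfp-1, 10.27, 10.93 and 10.01 in rde-4, 9.84 and 9.94 in lin-35 unc-13, and 10.37, 10.46 and 10.72 in wild type. The alg-1, zfp-1 and lin-35 unc-13 populations lay below wild type and rde-4 overlapped it, but no change passed. The alg-1 difference came nearest, at -0.92 ± 0.23 with an adjusted p of 0.0576.

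far-2, which lies beside far-1 on chromosome III, was at 10.49 and 10.36 in zfp-1, at 11.62, 11.93 and 11.69 in alg-1, at 11.46, 10.77 and 11.41 in rde-4, at 11.21 and 10.98 in lin-35 unc-13, and at 11.25, 12.003 and 11.65 in wild type. It fell by 1.21 ± 0.27 in zfp-1 (adjusted p = 0.0289), a call lost without wild-type replicate 2 or either zfp-1 population (adjusted p 0.0953 to 0.242). Both zfp-1 populations were below all others, yet alg-1 minus zfp-1, at 1.32 with a 95% interval of 0.74 to 1.91, missed the threshold (adjusted p = 0.0514). far-1 itself stayed between 15.63 and 16.06 in all 13 populations. Its probe set carries the suffix that marks probes shared with other transcripts, as do those of fat-6, elo-5, elo-6, lipl-3 and far-3.

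The desaturase genes were mostly even across strains. fat-1, the desaturase that makes omega-3 fatty acids, fat-2, which makes linoleic acid, and fat-3 and fat-4, which act on polyunsaturated acids, showed no change that passed in any mutant. Over all 13 populations fat-1 ran from 11.96 to 12.65, fat-2 from 12.01 to 12.94, fat-3 from 11.81 to 12.92 and fat-4 from 11.13 to 12.22. The exception was among the genes that insert the first double bond. fat-5, which acts on palmitic acid, had values of 5.55, 6.93 and 5.33 in alg-1, 5.88 and 7.58 in zfp-1, 6.60, 5.85 and 4.55 in rde-4, 7.66 and 8.36 in lin-35 unc-13, and 9.004, 7.67 and 8.15 in wild type. All populations of the first 3 mutants lay below all wild-type ones, with a wide spread within each of those mutants. It fell by 2.61 ± 0.62 in rde-4 (adjusted p = 0.0245), where 1 of 3 populations was below 5. The changes of -2.34 in alg-1 (adjusted p = 0.0664) and -1.54 in zfp-1 (adjusted p = 0.218) did not pass. The rde-4 call was lost without wild-type replicate 1 (adjusted p = 0.0934), wild-type replicate 2 (adjusted p = 0.0541), rde-4 replicate 2 (adjusted p = 0.0516) or rde-4 replicate 3 (adjusted p = 0.0701).

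fat-6, a desaturase acting on stearic acid, was at 12.18 and 12.37 in lin-35 unc-13, at 10.86, 11.37 and 10.94 in alg-1, at 12.06 and 11.95 in zfp-1, at 11.59, 11.73 and 11.51 in rde-4, and at 11.68, 11.34 and 11.65 in wild type. Both lin-35 unc-13 populations lay above all others, and the alg-1 populations took 3 of the lowest 4 places. lin-35 unc-13 was higher than alg-1 by 1.22 ± 0.20 (adjusted p = 0.00275), and this call held under all 26 other settings. Neither side passed against wild type, with 0.72 in lin-35 unc-13 (adjusted p = 0.0607) and -0.50 in alg-1 (adjusted p = 0.174). fat-7, which encodes the same kind of enzyme as fat-6, was below 5 in most populations, with a range of 4.31 to 5.58, and no change in it passed.

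No elongase passed in any of the 10 comparisons as fitted. elo-1, which lengthens polyunsaturated acids, ran from 13.85 to 14.43, and elo-2, which lengthens palmitic acid, from 11.67 to 12.46. elo-3 ran from 7.13 to 9.20. The smallest unadjusted p of the family against wild type was that of elo-5, which with elo-6 makes branched-chain acids. Its values were 13.13 and 12.27 in zfp-1 against 13.71, 13.38 and 13.61 in wild type, without overlap, a change of -0.87 with a 95% interval of -1.55 to -0.18 and an adjusted p of 0.136. lin-35 unc-13, at 14.14 and 13.80, lay above zfp-1 by 1.27 ± 0.34 and just missed the threshold (adjusted p = 0.0507). This difference passed with the 15 arrays fitted singly, with the trend and robust prior, and without zfp-1 replicate 1, rde-4 replicate 2 or rde-4 replicate 3. elo-6, separated from elo-5 by 3 genes on chromosome IV, ran from 12.95 to 14.06.

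For the other lipid-binding genes, no change against wild type passed in lbp-4, lbp-5, lbp-6, lbp-7 or lbp-9. lbp-7 was at 6.97, 7.37 and 7.98 in rde-4 against 7.998, 8.28 and 8.49 in wild type, a change of -0.82 that missed the threshold (adjusted p = 0.0589). Its values in lin-35 unc-13 were 8.42 and 8.96, higher than in rde-4 by 1.25 ± 0.28 (adjusted p = 0.0144). That call was lost without lin-35 unc-13 replicate 2 (adjusted p = 0.107). The other calls of that comparison were near the threshold. fat-5 was higher in lin-35 unc-13 by 2.34 ± 0.69 (adjusted p = 0.0494), and this was lost under either other scaling (adjusted p = 0.055 and 0.0536), when any of wild-type replicates 2 and 3, alg-1 replicates 1 and 3, rde-4 replicates 2 and 3 or the lin-35 unc-13 populations was left out, and in several other settings (adjusted p 0.0506 to 0.193 in all). lbp-4 was at 9.43 and 10.61 in lin-35 unc-13 against 10.85, 11.57 and 10.9995 in rde-4, a difference of -1.12 ± 0.31 (adjusted p = 0.0406). It was lost with any population left out other than alg-1 replicate 2, rde-4 replicate 1 and lin-35 unc-13 replicate 2, and the difference was -0.53 without lin-35 unc-13 replicate 1 (adjusted p = 0.497). The lbp-4 call was also lost without the filter (adjusted p = 0.0915), with alg-1 replicates 1 and 3 merged (adjusted p = 0.057) and with wild-type replicate 3 alone in place of the 3 wild-type populations (adjusted p = 0.0681). lbp-6, neighbour to lbp-5 with 1 gene between them, kept within 13.61 to 14.19 in all populations.

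Among the other FAR genes, far-6 was at 7.02 and 6.99 in zfp-1 against 7.55, 8.15 and 7.97 in wild type, a change of -0.88 that did not pass (adjusted p = 0.0805). far-3 was below 5 in both zfp-1 populations, at 4.64 and 4.78, against 9.03, 6.18 and 6.15 in wild type, which makes it at least 4.34-fold lower in the means but did not pass (adjusted p = 0.104). far-8 ran from 7.76 to 10.85, with alg-1 values of 9.65, 10.85 and 9.42 above the 8.76, 9.34 and 9.13 of wild type, and the difference of 0.89 did not pass (adjusted p = 0.296).

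Most of the calls against wild type ended once replicate 3 was the single control. That fit dropped the populations that stood apart and also had fewer controls. Neither replicate 1 nor replicate 2 was tried alone. Whether the losses came from the smaller number of controls or from the populations dropped was therefore not tested. Set against wild-type replicate 3 alone, members called were 1 in alg-1 (lipl-1), 2 in zfp-1 (lipl-1 and lipl-7), 1 in rde-4 (lipl-1) and 0 in lin-35 unc-13, where 0.163%, 0.221%, 0.338% and 3.4% of all genes were called. The lbp-1 changes then were -1.65 in alg-1 (adjusted p = 0.106), -1.41 in zfp-1 (adjusted p = 0.161) and -1.31 in rde-4 (adjusted p = 0.164). For far-7 they were -2.10 (adjusted p = 0.318), -2.14 (adjusted p = 0.288) and -2.71 (adjusted p = 0.143) in the same mutants. Changes behind the other lost calls moved less. In zfp-1, lipl-2 went from -2.10 to -2.05, lbp-2 from -1.31 to -1.17 and far-2 from -1.21 to -1.22. In rde-4, lipl-2 went from -2.19 to -2.14, fat-5 from -2.61 to -2.48 and lipl-5 from -1.10 to -1.18. No change called with 3 wild-type populations could turn its direction here, since in each the mutant populations all lay below replicate 3 too.

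Other choices ended some of the calls as well. With only zfp-1 and wild type in the fit, lipl-7 (adjusted p = 0.0564), lbp-1 (adjusted p = 0.0736), lbp-2 (adjusted p = 0.0865) and far-2 (adjusted p = 0.0873) no longer passed, and with only rde-4 and wild type fat-5 (adjusted p = 0.0648) and lipl-5 (adjusted p = 0.0814) did not. Without the filter on dim genes, far-2 (adjusted p = 0.0652) and lipl-2 (adjusted p = 0.118) in zfp-1 and lipl-2 (adjusted p = 0.0524), fat-5 (adjusted p = 0.0865) and lipl-5 (adjusted p = 0.07) in rde-4 did not pass. far-2 in zfp-1 was also lost after subtraction of array medians (adjusted p = 0.0575), and lbp-2 in zfp-1 with the 15 arrays fitted singly (adjusted p = 0.0617). Between mutants, fits of only the groups compared lost lipl-5 (adjusted p = 0.0929), lbp-7 (adjusted p = 0.123), fat-5 (adjusted p = 0.0968) and lbp-4 (adjusted p = 0.204) in lin-35 unc-13 against rde-4 and lbp-2 in zfp-1 against rde-4 (adjusted p = 0.0538). In lin-35 unc-13 against zfp-1, subtraction of array medians lost lipl-7 (adjusted p = 0.0863) and lbp-2 (adjusted p = 0.119), and leaving out the filter lost far-7 (adjusted p = 0.0557) and lbp-2 (adjusted p = 0.0544). There lbp-2 was also lost with only the groups compared (adjusted p = 0.0518) or the 15 arrays fitted singly (adjusted p = 0.14), and the fit of single arrays lost lbp-2 in zfp-1 against rde-4 (adjusted p = 0.0727).

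**Figure D4:**
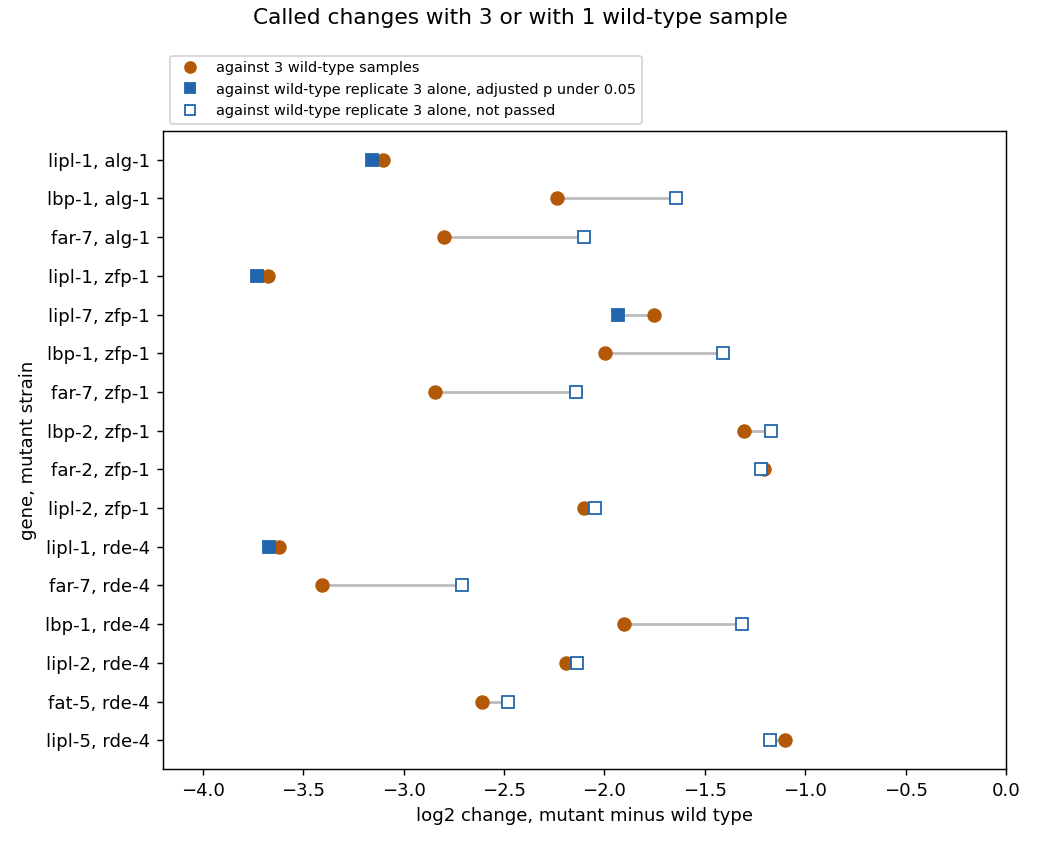
Log2 changes that passed in alg-1, zfp-1 and rde-4, computed against the 3 wild-type populations and against wild-type replicate 3 alone. All lie below 0 with either control, which was fixed because in each the mutant populations lay below every wild-type one. The changes of lbp-1 and far-7 are smaller against replicate 3 alone.

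Genes around the 5 families in the same pathways were compared in the same way. Of 11 partners of elongation and fatty acid synthesis, 0 passed in alg-1 and in lin-35 unc-13, 1 was higher and 1 lower in zfp-1, and 1 was lower in rde-4. mlcd-1, the malonyl-CoA decarboxylase, was at a mean of 7.77 in zfp-1 and 7.79 in rde-4, against 8.58 in wild type (changes of -0.80 and -0.79, adjusted p = 0.0499 and 0.0228). emb-8, the cytochrome P450 reductase, was higher in zfp-1 by 1.14 (adjusted p = 0.0441). Of 12 tested genes of fat storage and other lipases, 1 was higher in zfp-1 and in rde-4 and 0 passed in alg-1 or lin-35 unc-13. This gene was dgat-2, which makes triglyceride, with changes of 1.67 in zfp-1 (adjusted p = 0.046) and 1.44 in rde-4 (adjusted p = 0.0315). None of 3 tested lipoprotein genes passed in any mutant.

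Of 19 regulators of these pathways, 1 was higher and 1 lower in alg-1, 1 was lower in zfp-1, 2 were higher and 1 lower in rde-4, and 1 was lower in lin-35 unc-13. nhr-68, a nuclear receptor that controls propionate breakdown, averaged 5.75 in alg-1 and 6.25 in zfp-1, against 10.07 in wild type (changes of -4.33, adjusted p = 0.00735, and -3.83, adjusted p = 0.0179). nhr-80, a nuclear receptor known to control desaturase genes, averaged 7.54 in rde-4 and 8.61 in wild type (change -1.07, adjusted p = 0.0198). In alg-1 nhr-80 was at 7.62, 8.03 and 7.37 and in zfp-1 at 7.78 and 7.91. These values lay below all wild-type populations, though neither change passed. In lin-35 unc-13, at 8.54 and 8.63, it lay within the wild-type range. The membrane lipid sensor paqr-2 was higher in rde-4 by 1.84 (adjusted p = 0.0391), at 8.05, 8.22 and 8.31 against a wide 6.58, 5.13 and 7.35 in wild type. Its values were 8.11, 6.67 and 7.95 in alg-1, 7.55 and 8.06 in zfp-1, and 8.26 and 7.95 in lin-35 unc-13, where no change passed. Genes of these lists were not followed under the other settings. nhr-23, a receptor of the moulting cycle, was higher in alg-1 by 1.69 (adjusted p = 0.0305) and in rde-4 by 1.42 (adjusted p = 0.0315). mxl-3, known as a repressor of lysosomal lipase genes in fed worms, averaged 7.04 in lin-35 unc-13 and 9.83 in wild type, a change of -2.80 ± 0.40 (adjusted p = 0.000898).

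Levels of cell type markers are given beside these results because the RNA came from whole larvae. Of 13 intestine markers, 3 were lower in alg-1 and in zfp-1 (the esterase ges-1, the protease cpr-6 and the ferritin ftn-1), 4 were lower in rde-4 (ges-1, cpr-6, the protease cpr-1 and the metallothionein mtl-2) and 0 passed in lin-35 unc-13. Their summed level, as log2, ran from 16.38 to 16.53 in alg-1, was 16.36 in both zfp-1 populations, and ran from 15.53 to 16.34 in rde-4, from 16.68 to 16.71 in lin-35 unc-13 and from 16.40 to 16.54 in wild type. No intestine marker was below 5 throughout a group. Of 9 tested hypodermis markers 1, nhr-23, was higher in alg-1 and in rde-4, and 0 of 10 body wall muscle markers passed in any mutant. Of 6 pharynx markers 1, marg-1, was lower in rde-4 and in lin-35 unc-13, and of 12 neuronal markers 1, egl-21, was lower in rde-4. Of 6 tested germ line markers 5 were higher in lin-35 unc-13, with a summed log2 level over the whole list of 13.6 to 14.1, against 9.03 to 9.28 in wild type. The part of these tissues in the changes of the lipid genes was not tested.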

How the data were processed

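Per the labels, the authors deposited log2 values made with GCRMA, a method that removes background, scales the arrays to each other and gives 1 value per probe set; no version or settings of it were found in the labels. Arrays have no read depth and their number sets the precision: there were 15 arrays of 13 populations, of which 2 were hybridised to 2 arrays each and averaged.

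After 77 control probe sets were left out of 22625, 20766 probe sets had 1 annotated gene, 887 had several and 895 were not listed in the table used. RefSeq (WBcel235) matched 20701 and gave names, chromosomes and neighbours only. For each of 17118 genes the probe set with the highest mean was kept, and 8653 genes with at least 5 in at least 2 populations were fitted together in limma 3.58.1 (R 4.3.3, lmFit and eBayes, 8 residual degrees of freedom). All 10 contrasts were two-sided, with Benjamini-Hochberg adjustment over all 8653 genes and a threshold of 0.05. SE is limma's, and intervals of 95% are unadjusted. Where a whole group lay below 5, folds were computed against 5 as a bound.

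Members, lists and tests were chosen with earlier results of these data known. Values were given for up to 12 genes per mutant against wild type and 6 per direct comparison by smallest adjusted p, the elongase with the smallest p, and up to 3 genes per list in each mutant. There were 4 pathway lists and 6 cell type lists. Near misses, levels and the other 2 calls of lin-35 unc-13 against rde-4 were named after their values were seen.

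On simulated data of 8653 genes, log2 changes of 1 were recovered in 41% (alg-1), 24% (zfp-1), 36% (rde-4) and 21% (lin-35 unc-13), and changes of 2 in 91%, 86%, 88% and 83%. Alternatives covered normalisation, filters, array averaging, samples in the fit, block, variance prior, threshold, wild-type populations and each population left out. Sequences were not used here. Figures were drawn with matplotlib 3.10.9.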

Additional observations from a re-analysis of the deposited data

How the results depend on the processing

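Over the 36 calls and 26 settings, 804 of 930 values kept direction and call, 126 lost the call and 0 reversed. Many of these settings could not reverse a change. Dropping the filter, a stricter threshold or leaving out a population outside the pair did not alter the change itself. For lbp-4 in lin-35 unc-13 against rde-4 it stayed at -1.12 in such settings. The groups of each call did not overlap, so leaving out their own populations could not reverse it either. The settings also share data, so these totals do not measure stability. lipl-1 could not be tested with a mean of at least 6. The number of families' genes called moved by more than 1.5 times as follows. Against wild type, alg-1 gave 1 when wild-type replicate 3 was the single control (3 otherwise). zfp-1 gave 3 with only both groups in the fit, 2 with that single control and 3 at an adjusted p under 0.01 (7 otherwise). rde-4 gave 3 without the filter, 1 with the single control and 3 at 0.01 (6 otherwise), and lin-35 unc-13 gave 1, fat-6, without the filter (0 otherwise). For alg-1 against zfp-1 (0 otherwise), quantile normalisation, array medians, a mean of at least 6, the trend and robust prior and the single control gave 1 each, and the 15 arrays or both groups alone gave 2. zfp-1 against rde-4 gave 1 (lipl-7) with the 15 arrays, both groups alone or 0.01 (2 otherwise). lin-35 unc-13 against rde-4 gave 4 with both groups alone or at 0.01 (8 otherwise), and against zfp-1 it gave 3 at 0.01 (6 otherwise). Scaling by array medians or quantiles moved the median change of all genes against wild type by -0.16 and -0.13 in lin-35 unc-13, and array medians by 0.12 in zfp-1 and 0.14 in rde-4. The share of all genes called fell too, to 1.17% from 4.2% for zfp-1 with only both groups in the fit. Without the filter it fell to 2.2% from 11.1% for rde-4 and to 3.7% from 6.66% for lin-35 unc-13. At 0.01, and for pairs of mutants under other settings, that share was not counted. Fewer populations or genes entered several of these fits, and the cause of the other shifts was not tested.

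With each population left out in turn, counts ran from 3 to 5 for alg-1, 2 to 7 for zfp-1, 3 to 6 for rde-4 and 0 to 1 for lin-35 unc-13 against wild type. Between mutants they ran from 0 to 0 for alg-1 against rde-4, 0 to 2 for alg-1 against zfp-1, 0 to 2 for zfp-1 against rde-4, 6 to 10 for lin-35 unc-13 against rde-4, 3 to 6 against alg-1 and 2 to 7 against zfp-1. Against wild type, the zfp-1 count moved by over 1.5 times without either zfp-1 population, and the lin-35 unc-13 count without its own replicate 2. Those fits kept 1 population of the mutant. The counts also moved by over 1.5 times for alg-1 without rde-4 replicate 3 (5, with 3.25% of all genes called against 3.13% in the main fit). They did so for rde-4 without wild-type replicate 1 (3, with 2.66% called against 11.1%). For lin-35 unc-13 they did so without wild-type replicate 1 (lipl-7) or alg-1 replicate 2 (fat-6), 1 each, with 6.12% and 7.74% called against 6.66%. For alg-1 against zfp-1 they did so without wild-type replicate 1 (2), wild-type replicate 2, alg-1 replicate 2 or rde-4 replicate 2 (1 each), for zfp-1 against rde-4 without zfp-1 replicate 1 (0) or 2 (1), and for lin-35 unc-13 against zfp-1 without zfp-1 replicate 1 (3) or 2 (2), or lin-35 unc-13 replicate 1 or 2 (3 each).

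Replicate numbers were shared between groups and were not taken as a pairing, which no label states. Correlations of same-numbered deviations ran from -0.27 to 0.38, and 4 of 6 populations matched their own number best in alg-1 and wild type, 2 of 6 in rde-4 and wild type, and 5 of 6 in alg-1 and rde-4. With the replicate block 3, 8, 7 and 0 genes were called in alg-1, zfp-1, rde-4 and lin-35 unc-13 against wild type. The block also raised the share of all genes called, to 4.11%, 9.89%, 13.7% and 7.95% in the same order. Against rde-4, alg-1 and zfp-1, lin-35 unc-13 then had 8, 6 and 6, alg-1 against rde-4 or zfp-1 had 0, and zfp-1 against rde-4 had 2. Of the 36 calls the block ended 1, fat-5 in lin-35 unc-13 against rde-4 (adjusted p = 0.0802).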
